A study of Mus musculus with 35 samples.

Results

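The response to transforming growth factor β (TGF-β) was examined by RNA-Seq in primary cardiac fibroblasts (CFs) in which the micropeptide IAMP had been knocked down with the siRNA IAMP-siR-2. The comparison took in 6 of the 35 samples of the series: 3 libraries of CFs given IAMP-siR-2 and TGF-β, and 3 libraries of CFs given IAMP-siR-2 and no cytokine. The samples were taken by their labels and joined gene by gene on the gene identifier, and of the 55487 genes in the tables the 21508 with enough counts in the fit were tested. All 6 libraries came from CFs isolated from hearts of adult mice by enzymatic digestion and adherence to collagen-coated plates, and grown in high glucose medium with fetal bovine serum. IAMP-siR-2 targets 4930523C07Rik, the mouse gene that encodes IAMP (Inflammation Associated MicroPeptide). Each stimulus also has matching groups of 3 libraries with a Scrambled siRNA and with IAMP-siR-1, a separate siRNA to the same gene, and these 12 libraries were used to ask whether the response under IAMP-siR-2 differed from the response under the other siRNAs. No strain, allele or transgene is given for the sequenced CFs, and neither the TGF-β dose nor its duration is given for these libraries. The treatment text attached to the samples speaks of siRNA followed by IL-17 after 24 hours. The untreated and the TGF-β libraries were deposited in separate count tables, so stimulus and table cannot be told apart. Whether the 3 libraries of a group came from separate cultures is not stated, so the spread between libraries may be technical. The p-values rest on a spread estimate shared over the 18 libraries of the fit.

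TGF-β is a secreted cytokine that is held in the matrix in a latent form, binds a pair of receptor kinases on the cell surface, and signals through SMAD proteins that enter the nucleus and act on target genes. In the heart it is known for turning resident fibroblasts into myofibroblasts, which carry smooth muscle contractile proteins and lay down collagen and crosslinking enzymes. Interferon signals run through a different route, in which JAK kinases and STAT proteins switch on antiviral and antigen-presentation genes. NF-κB and C/EBP factors drive the acute-phase and chemokine genes that IL-17 is known to raise in fibroblasts.

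The deposited values were estimated counts per gene, in which each read pair was inferred to contribute up to 6 counts. Totals ran from 116528769 to 117624048 estimated counts in the untreated IAMP-siR-2 libraries and from 104139670 to 108379622 under TGF-β. Counts at or under 18 in a library, or 3 read pairs at 6 counts each, were treated as not detected. Detected genes numbered 16573 to 16778 per untreated library and 17051 to 17250 per TGF-β library. Mitochondrial genes took 2.27% to 2.33% of the counts in untreated libraries and 2.87% to 3.39% under TGF-β, and the part of this shift in any result was not tested. Levels are given as CPM, estimated counts scaled by library size and TMM factor. Among genes at 1 CPM or more, the median coefficient of variation between the 3 libraries was 4.69% in untreated CFs (12956 genes) and 4.86% under TGF-β (13383 genes).

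The siRNA's own target was checked first. 4930523C07Rik (ENSMUSG00000090394, chr1:160044382-160080208, GRCm38) measured 1.78, 1.88 and 1.90 CPM in untreated IAMP-siR-2 CFs, against 22.2, 22.9 and 25.9 CPM in untreated Scrambled CFs. Under TGF-β it measured 2.89, 3.19 and 3.74 CPM with IAMP-siR-2 and 19.2, 19.6 and 22.7 CPM with Scrambled siRNA. The lowest Scrambled library thus stood above the highest IAMP-siR-2 library in both states. IAMP-siR-2 lowered the transcript by 3.67 (log2, SE 0.12) in untreated CFs and by 2.65 (SE 0.12) under TGF-β, a smaller reduction in the TGF-β libraries. Within IAMP-siR-2 the transcript stood 0.82 higher under TGF-β (log2, SE 0.14), which did not reach the 2-fold threshold used for calls.

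A gene was called higher or lower when edgeR's quasi-likelihood test gave a Benjamini-Hochberg (BH) adjusted p of at most 0.05 and the log2 fold change was at least 1 in size. Of 21508 genes tested, 2789 (13%) were called higher under TGF-β in IAMP-siR-2 CFs and 1736 (8.07%) were called lower. The median log2 fold change of all tested genes was 0.06. With genes at the detection floor taken at their bound, 757 of the genes called higher and 303 of those called lower moved by at least 2 on the log2 scale, and 122 and 15 by at least 4. The lowest TGF-β library exceeded the highest untreated library in 2652 of the 2789 genes called higher. For 1689 of the 1736 genes called lower, the order was the opposite one in every library. The untreated group was at or under the detection floor in 746 of the called genes and the TGF-β group in 377. Fitted fold changes of those genes depend on the prior count, so where a fold is given for such a gene it is a bound against the floor. In bulk RNA, fewer cells of a type and less RNA per cell cannot be told apart.

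The response was set beside that of CFs with the other siRNAs, with no library in common. Scrambled CFs had 2683 genes (12.5%) called higher and 1951 (9.07%) lower under TGF-β, and IAMP-siR-1 CFs had 2761 (12.8%) and 1734 (8.06%). Of the genes called higher under IAMP-siR-2, 1842 were also called higher under Scrambled (66.0% of the IAMP-siR-2 list and 68.7% of the Scrambled list), and 1859 under IAMP-siR-1 (66.7% and 67.3%). All 3 siRNAs shared 1564 rises (56.1% of the IAMP-siR-2 list), while 652 (23.4%) were called under IAMP-siR-2 and in neither of the other responses. Among the falls, 1107 were shared with Scrambled (63.8% of the IAMP-siR-2 list and 56.7% of the Scrambled list), 1084 with IAMP-siR-1 (62.4% and 62.5%) and 917 with both (52.8%). Opposite calls in the IAMP-siR-2 and Scrambled responses were made for 3 of the rises and 7 of the falls. A call in only 1 response does not show that the responses differ, and the difference itself is tested further on.

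The 12 largest rises among well detected named genes were led by innate defence genes. The rises here and the falls below were picked only where every library was above the floor and the groups did not overlap. Lcn2, which encodes the iron-sequestering protein lipocalin 2, measured 1.15, 0.976 and 0.543 CPM untreated and 692, 715 and 686 CPM under TGF-β (log2 fold change 9.61, SE 0.25, edgeR BH-adjusted p = 5.4e-13). Every TGF-β library was far above every untreated library, and the TGF-β libraries lay close together. Cxcl10, a chemokine gene induced by interferon, measured 0.461, 1.22 and 1.28 CPM untreated and 250.4, 161 and 119 CPM under TGF-β (log2 fold change 7.49, SE 0.70, edgeR BH-adjusted p = 5.7e-07). Its TGF-β libraries were less alike, with library 1 the highest and library 3 the lowest. H2-Q6 and H2-Q7, nonclassical MHC class I genes, went from under 1 CPM in every untreated library to 249, 194 and 214 CPM and 128, 112 and 122 CPM. The GTPase genes Tgtp1 and Tgtp2 reached 45.5, 38.6 and 32.4 CPM and 128, 103 and 91.0 CPM from 0.382, 0.461 and 0.946 CPM and 0.799, 1.38 and 2.15 CPM. The 2 genes of each of these pairs are close copies, as are Oas1g and Oas1a, so the split of reads within a pair is uncertain. Outside the defence genes, the list held Mfap4, a microfibril-associated glycoprotein gene (6.56), Apod, a lipid-binding apolipoprotein gene (5.99), and Slc39a4, a zinc importer gene (5.93), all on the log2 scale. Cfb (6.35), Mx1 (6.11) and Oas1g (5.85) completed it.

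The 12 largest falls were a mixed group of signalling and secreted products. Nr4a3, an orphan nuclear receptor gene of the immediate-early class, measured 36.0, 34.4 and 31.1 CPM untreated and 0.600, 0.909 and 0.914 CPM under TGF-β (log2 fold change -5.39, SE 0.32, edgeR BH-adjusted p = 1.7e-09). Tnfsf15, a TNF family ligand gene, measured 109, 108 and 101 CPM untreated and 2.82, 2.34 and 3.57 CPM under TGF-β (log2 fold change -5.19, SE 0.13, edgeR BH-adjusted p = 1.8e-16). Both genes were high in every untreated library and far lower in every TGF-β library, where they stayed above the detection floor. Fgf10, a growth factor gene, fell by 4.63, and Col28a1, a collagen gene, fell by 4.2. Rgs2, which encodes an inhibitor of G protein signalling, fell by 4.37, S1pr3, a sphingosine-1-phosphate receptor gene, by 3.99, and Serpinb2, a plasminogen activator inhibitor gene, by 4.21. The other falls were Pkhd1l1 (-4.44), Mycn (-4.02), Nipal1 (-3.91), Eid3 (-3.88) and Crct1 (-3.73).

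**Figure D1:**
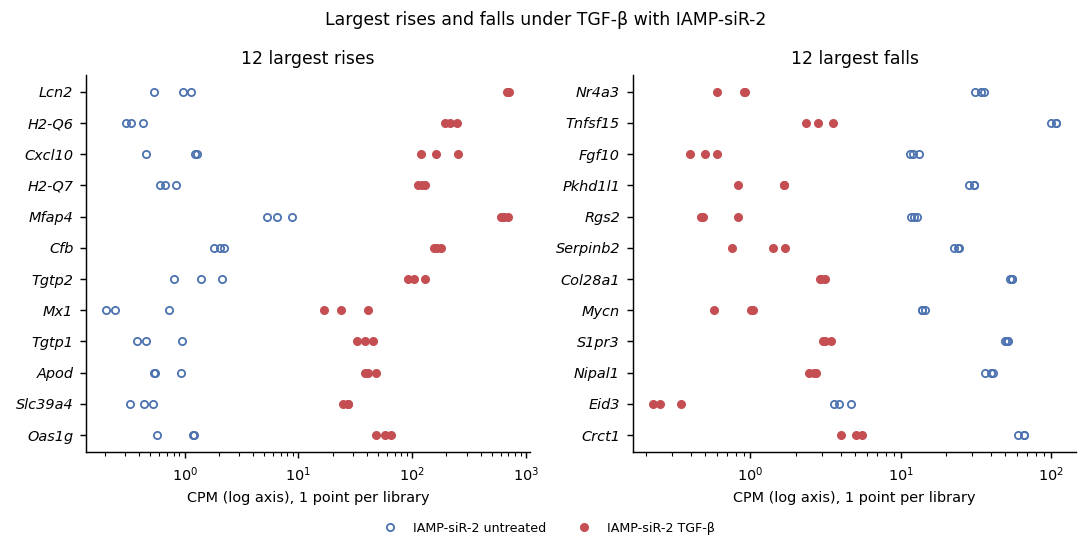
The 12 largest rises and the 12 largest falls under TGF-β in IAMP-siR-2 CFs, each point being the CPM of a library on a log axis, with untreated and TGF-β libraries marked apart. Genes were picked only where the groups did not overlap, and Lcn2 moves from about 1 CPM to between 686 and 715 CPM.

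Genes of the TGF-β route itself were examined next. Of 30 ligands, receptors and latent binders, 9 were called higher and 5 lower, with a median log2 fold change of 0.25. For this and every later list, the shares over all tested genes were 13% called higher and 8.07% called lower. Tgfb1 measured 80.8, 87.0 and 86.2 CPM untreated and 217, 204 and 210.3 CPM under TGF-β (log2 fold change 1.31, SE 0.04, edgeR BH-adjusted p = 6.9e-19), and its groups did not overlap. The other ligand genes stood lower without passing the 2-fold threshold, with values of -0.63 ± 0.06 for Tgfb2 and -0.63 ± 0.04 for Tgfb3 (log2 ± SE, here and in the rest of the text). The receptor genes Tgfbr1 (-0.89 ± 0.05) and Tgfbr2 (-0.33 ± 0.03) did not pass it either. The largest rise was that of Ltbp2, a latent TGF-β binding protein family gene, which went from 10.8, 9.27 and 11.3 CPM to 276, 288 and 290.5 CPM (log2 fold change 4.77, SE 0.06, edgeR BH-adjusted p = 1.3e-23). Fstl3, which encodes an activin antagonist, rose by 2.77, and Gdf15, a stress-induced member of the TGF-β family, rose by 2.74. Grem1, a BMP antagonist gene, fell by 2.45, Bmpr1b, a BMP receptor gene, by 1.30, and Inhba, which encodes the activin A subunit, by 1.14.

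SMADs and their feedback genes were called more often lower than higher, with 7 falls and 2 rises among 26 tested (median -0.20). Smad7, the inhibitory SMAD gene, went from 146, 149.7 and 159 CPM to 57.7, 53.1 and 55.1 CPM (log2 fold change -1.45, SE 0.04, edgeR BH-adjusted p = 8.3e-20). The untreated and TGF-β values of Smad7 were well apart. Id1 and Id2, inhibitors of basic helix-loop-helix factors that BMP signals are known to raise, fell by 2.91 and 2.32. Pmepa1, a feedback inhibitor of SMAD activation, rose from 276, 304 and 312 CPM to 767, 761 and 794 CPM (log2 fold change 1.38, SE 0.04, edgeR BH-adjusted p = 5.8e-20), as did Snai1 (1.21), a repressor gene of the mesenchymal programme. Skil, which encodes a SMAD co-repressor, stood at 0.27 ± 0.05 and was not called.

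Of 26 immediate target genes of TGF-β, 6 were called higher and 2 lower, against 13% and 8.07% of all tested genes. The falls were near the share over all genes. The median of the list was 0.25, and 0.40 with the 1 member at the floor taken at its bound. Ccn2, the connective tissue growth factor gene, measured 2295, 2417 and 2490 CPM untreated and 3718, 3678 and 3718 CPM under TGF-β and was not called (0.63 ± 0.04). Its groups did not overlap, but the change was smaller than 2-fold. Nox4, a hydrogen peroxide producing oxidase gene, rose by 2.05, Pdgfb, a growth factor gene, by 2.06, and Wnt9a by 1.51. Hmga2, a chromatin architecture gene, fell by 2.71 and the protease gene Adam19 by 1.63. In the 300-base promoter windows, the SMAD motif CAGAC was present on either strand in 14 of the 19 members with a window (73.7%), against 49.7% of all 27025 windows. The palindrome GTCTAGAC was found in 0 of 19 members' windows and 0.211% of all.

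**Figure D2:**
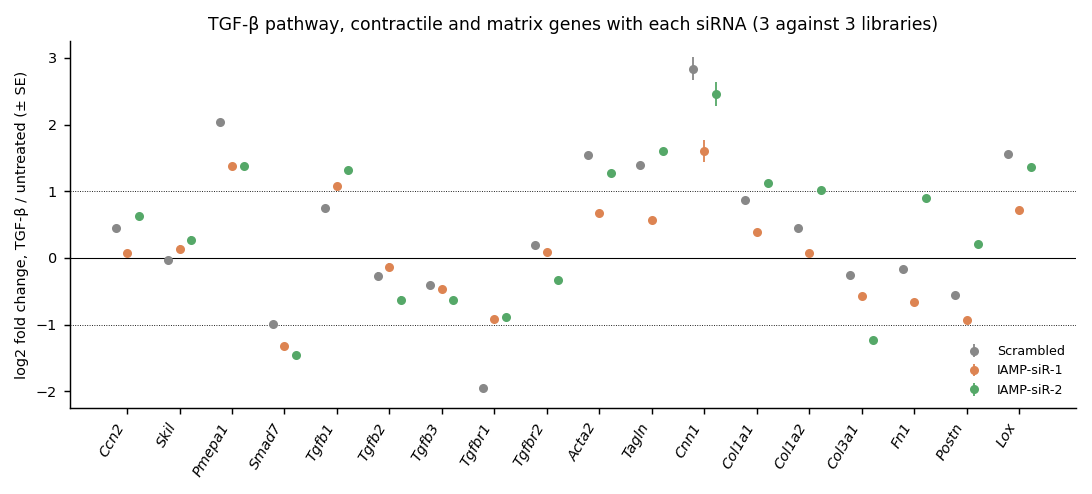
Log2 fold change under TGF-β (± SE, 3 against 3 libraries) of the fixed TGF-β, contractile and matrix genes with each of the 3 siRNAs, the dotted lines marking the threshold of 1. With IAMP-siR-2, Pmepa1 (1.38), Tgfb1 (1.31), Acta2 (1.27) and Col1a1 (1.13) lie above the upper line, Smad7 (-1.45) and Col3a1 (-1.23) below the lower, and Ccn2 (0.63) between them.

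Smooth muscle contractile genes, the usual markers of the myofibroblast, moved in both directions: 8 of 31 were called higher and 5 lower, with a median of 0.23. Acta2, smooth muscle α-actin, measured 641, 609.8 and 624 CPM untreated and 1451, 1528 and 1546 CPM under TGF-β (log2 fold change 1.27, SE 0.04, edgeR BH-adjusted p = 1.5e-19). Tagln, the actin crosslinker transgelin, measured 194, 188 and 208 CPM untreated and 565, 611 and 614 CPM under TGF-β (log2 fold change 1.60, SE 0.05, edgeR BH-adjusted p = 2.6e-19). For both genes every TGF-β library exceeded every untreated library. Cnn1 (calponin 1) rose by 2.45, Synpo2 (an actin-bundling protein of muscle) by 2.80 and Lmod1 (leiomodin 1, an actin filament nucleator) by 1.86. Vcl, which encodes the focal adhesion protein vinculin, fell from 915, 992 and 888 CPM to 149, 136 and 130.1 CPM (log2 fold change -2.75, SE 0.05, edgeR BH-adjusted p = 2.4e-21), and Tes, a focal adhesion LIM protein gene, fell by 1.26. Myocd, the smooth muscle co-activator gene, was near the floor at 0.304, 0.523 and 0.236 CPM untreated and 0, 0.135 and 0.0559 CPM under TGF-β, at least 2.07-fold lower. The summed level of the list was 10050 to 10500 CPM untreated and 9777 to 9865 CPM under TGF-β. Cardiomyocyte markers moved too: Tnnt2, cardiac troponin T, fell from 32.2, 27.2 and 31.2 CPM to 3.12, 3.02 and 2.85 CPM while the defining genes Myh6 and Mb were at 0. Myl2 and Tnni3, at under 0.5 CPM in every library, were called higher, and both lost the call when TGF-β library 2 was left out, as Myl2 did without any 1 untreated library.

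The CArG box, the site of serum response factor, was searched on either strand in the windows of 250 bases before to 50 bases after the first listed transcription start (RefSeq, GRCm38.p6). It occurred in 5 of the 25 members with a window (20%), against 1.57% of all 27025 windows. They were Myl9, which was called higher, Vcl, which was called lower, and Cnn2, Srf and Ldb3, which were not called. The window of Myl9, the myosin light chain gene with the largest rise among members that hold a match (1.80), is shown with the match in capitals because it carries the motif upstream of a gene that rose (plus strand, chr2:156775214-156775513).
Myl9: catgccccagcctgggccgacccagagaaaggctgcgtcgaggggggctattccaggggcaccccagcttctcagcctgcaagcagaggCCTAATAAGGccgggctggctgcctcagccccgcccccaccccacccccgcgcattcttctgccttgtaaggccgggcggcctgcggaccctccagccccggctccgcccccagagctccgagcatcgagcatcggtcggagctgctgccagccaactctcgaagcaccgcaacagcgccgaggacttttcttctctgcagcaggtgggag

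Type I collagen rose while type III collagen fell. Col1a1 measured 3259, 3442 and 3385 CPM untreated and 7623, 7079 and 7358 CPM under TGF-β (log2 fold change 1.13, SE 0.03, edgeR BH-adjusted p = 1.5e-19), and Col1a2 measured 2812, 2784 and 2881 CPM untreated and 5844, 5554 and 5833 CPM under TGF-β (log2 fold change 1.02, SE 0.03, edgeR BH-adjusted p = 1.6e-18). Col3a1 measured 8174, 8158 and 8191 CPM untreated and 3672, 3312 and 3498 CPM under TGF-β (log2 fold change -1.23, SE 0.04, edgeR BH-adjusted p = 1.0e-17). None of these groups overlapped. Over the fibrillar collagens, 4 of 11 were called higher, Col11a2 (1.82) and Col5a3 (1.35) being the others, and Col3a1 was the only fall. Among 22 tested basement membrane, network and FACIT collagens (which decorate fibrils), 3 were called higher and 6 lower, with a median of -0.39. Col8a2, a network collagen gene, rose from 0.104, 0.0976 and 0.333 CPM to 6.42, 5.26 and 6.50 CPM. Most of its untreated libraries were at or under the detection floor, so no fold change is given for Col8a2. Col22a1 rose by 2.36 and Col7a1, the anchoring fibril collagen gene, by 1.22. The chains of beaded filament collagen VI fell, Col6a3 by 2.43 and Col6a1 by 1.58, beside Col28a1.

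Enzymes that crosslink and process collagen moved upward or not at all past the threshold: 10 of 29 were called higher and 0 lower, with a median of 0.73 against 0.06 over all genes. At an adjusted p of at most 0.05 alone, 21 stood higher and 4 lower, where 29.4% of all tested genes stood higher and 28.2% lower by that rule. Lox, lysyl oxidase, measured 1692, 1839 and 1805 CPM untreated and 4499, 4626 and 4654 CPM under TGF-β (log2 fold change 1.37, SE 0.04, edgeR BH-adjusted p = 7.1e-19), with clear separation of the groups. Adamts14, a procollagen propeptidase gene, rose by 2.00, and Loxl3 by 1.58. Colgalt2, a collagen galactosyltransferase gene, was called at 1.65 but lost the call when untreated library 1 or 2 or TGF-β library 2 or 3 was left out (edgeR BH-adjusted p from 0.054 to 0.11).

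Matricellular and elastic fibre genes gave 13 rises and 6 falls among 35 (median 0.73). Cilp, which encodes a matrix protein known to bind TGF-β1, measured 0, 0 and 0.184 CPM untreated and 16.0, 14.7 and 17.7 CPM under TGF-β. Only 1 untreated library was above the detection floor, so no fold change is given for Cilp. Mfap4 went from 6.46, 5.27 and 8.73 CPM to 599.5, 645 and 690 CPM, the largest rise of a matrix gene with every untreated library above the floor. Fn1, fibronectin, measured 3128, 3401 and 3234 CPM untreated and 6099, 6111 and 5999 CPM under TGF-β and did not reach the threshold (0.90 ± 0.04). Postn, periostin, a marker of activated fibroblasts, measured 882, 883 and 955 CPM untreated and 1010, 1064 and 1072 CPM under TGF-β and was not called (0.21 ± 0.03). The adhesion-modulating genes Tnc (tenascin C), Thbs1 (thrombospondin 1) and Vcan (versican) fell by 2.31, 1.82 and 1.82. The small leucine-rich proteoglycans, which regulate fibril spacing, had 6 rises and 0 falls among 13, led by Aspn (2.88), Bgn (1.47) and Podn (1.35). Their summed level was 4875 to 5212 CPM untreated and 12690 to 13130 CPM under TGF-β.

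Matrix proteases and their inhibitors gave 11 rises and 4 falls among 34. The gelatinase gene Mmp9 (3.22) and the elastase gene Mmp12 (2.95) rose, while the plasminogen activator genes Plat and Plau fell by 1.78 and 1.69 and Adamts15 fell by 1.45. Mmp3, stromelysin 1, measured 1534, 1474 and 1690 CPM untreated and 3026, 3004 and 3044 CPM under TGF-β and was just under the threshold (0.95 ± 0.05). Timp4, counted among the rises, was at 0.0261, 0 and 0 CPM untreated and 0, 0.184 and 0.140 CPM under TGF-β, too near the floor for a fold change. It lost the call when untreated library 2 or 3 or TGF-β library 2 or 3 was left out (edgeR BH-adjusted p from 0.0971 to 0.142). Integrin genes were more often called lower (8 of 19) than higher (3). Itga11, a collagen receptor subunit gene, rose by 2.96, with Itgb5 (1.47) and Itgb2 (1.23). Itgb3, Itgb6 and Itga4 fell by 3.37, 3.27 and 2.35. Among 12 hyaluronan genes, the depolymerising genes Hyal1 (1.67) and Cemip (1.58) rose with Itih5 (1.61), and 4 fell, among them the synthase gene Has1 (3.13), the receptor gene Lyve1 (1.49) and Hmmr (1.23), a hyaluronan receptor gene that is also expressed in mitosis.

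Every interferon-stimulated gene on the list rose. Its members, like those of the other lists, were chosen with earlier results of these data known. All 31 members were called higher, with log2 fold changes from 1.62 (Irf9, a subunit of the interferon-activated factor ISGF3) to 6.11 (Mx1, an antiviral GTPase gene) and a median of 4.03 against 0.06 over all genes. The summed level of the 31 genes was 675.9 to 822.7 CPM in the untreated libraries and 7956 to 10040 CPM under TGF-β. In every member the lowest TGF-β library lay above the highest untreated library, by at least 2.93-fold. Among all genes called higher, 2652 of 2789 had groups apart in the same direction. The same list was also called higher in full under Scrambled (log2 fold changes 1.17 to 4.75) and under IAMP-siR-1 (1.47 to 5.76). Gbp4, a guanylate-binding protein gene of host defence, measured 0.0521, 0.435 and 0.0438 CPM untreated and 11, 8.67 and 7.45 CPM under TGF-β. Most of its untreated libraries were at or under the detection floor, so no fold change is given for Gbp4. Ifi44, an antiviral response gene, measured 9.55, 8.20 and 12 CPM untreated and 480.3, 443 and 401 CPM under TGF-β (log2 fold change 5.48, SE 0.37, edgeR BH-adjusted p = 1.8e-08). TGF-β library 1 held the highest value in 30 of the 31 members and library 3 the lowest in 27, so the 3 libraries were ordered alike across the list while remaining far above the untreated ones. The macrophage marker list, whose cells also express interferon-stimulated genes, stood at 83.0 to 86.3 CPM untreated and 156 to 162 CPM under TGF-β, and its part in the interferon values was not tested.

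**Figure D3:**
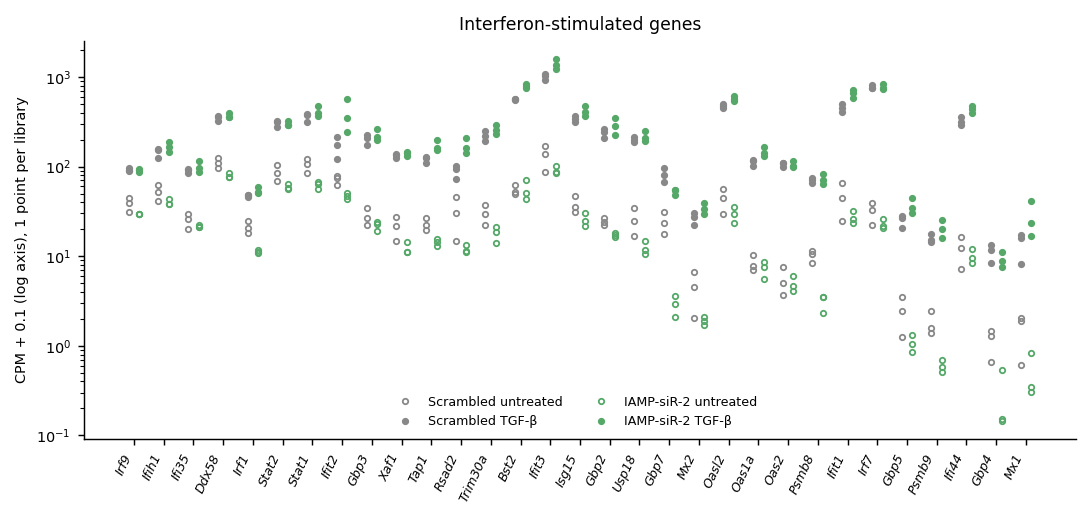
CPM + 0.1 on a log axis of the 31 interferon-stimulated genes in each untreated (open) and TGF-β (filled) library, with IAMP-siR-2 and with Scrambled siRNA. With IAMP-siR-2 every gene is higher in all TGF-β libraries, from a summed 675.9 to 822.7 CPM untreated to 7956 to 10040 CPM under TGF-β.

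The interferon-stimulated response element was searched as GAAANNGAAA on either strand in the same promoter windows. It was present in 14 of the 25 members with a window (56.0%), against 3.49% of all 27025 windows. A match describes letters in the window and is not evidence of factor binding. The windows of the 3 members with the largest rises among those that hold a match follow, because each carries the element near the start of a gene that rose in every library; capitals mark the matches, which overlap in Oas1a. Gbp5 lies on the plus strand at chr3:142496684-142496983 (log2 fold change 5.22), Ifit1, an inhibitor of viral translation, on the plus strand at chr19:34640639-34640938 (4.59), and Oas1a, a sensor of viral RNA, on the minus strand at chr5:120907476-120907775 (4.34), all in GRCm38.p6 from RefSeq.
Gbp5: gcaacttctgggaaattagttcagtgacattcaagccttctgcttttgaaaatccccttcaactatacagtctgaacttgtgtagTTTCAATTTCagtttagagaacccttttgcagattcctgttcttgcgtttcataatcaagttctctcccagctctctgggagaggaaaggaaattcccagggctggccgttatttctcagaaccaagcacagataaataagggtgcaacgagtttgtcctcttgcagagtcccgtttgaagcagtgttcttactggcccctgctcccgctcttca
Ifit1: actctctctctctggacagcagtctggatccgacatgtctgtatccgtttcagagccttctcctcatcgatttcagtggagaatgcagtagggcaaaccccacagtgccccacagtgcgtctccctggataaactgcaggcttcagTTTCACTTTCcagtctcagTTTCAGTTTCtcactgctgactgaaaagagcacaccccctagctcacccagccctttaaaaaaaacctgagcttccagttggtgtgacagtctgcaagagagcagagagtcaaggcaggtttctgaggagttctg
Oas1a: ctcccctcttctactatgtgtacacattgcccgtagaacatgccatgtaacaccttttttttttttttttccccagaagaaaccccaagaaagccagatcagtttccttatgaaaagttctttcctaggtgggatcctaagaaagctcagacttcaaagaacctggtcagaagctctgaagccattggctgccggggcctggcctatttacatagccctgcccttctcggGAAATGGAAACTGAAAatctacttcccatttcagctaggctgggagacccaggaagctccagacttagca
The match starts 165 bases before the first transcribed base in Gbp5, at 104 and 85 bases before it in Ifit1, and at 20 and 14 bases before it in Oas1a.

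Genes known to respond to IL-17 and NF-κB were often higher, with 22 of 33 called higher and 3 lower and a median of 1.80. Their summed level was 2615 to 2776 CPM untreated and 10630 to 11210 CPM under TGF-β. Saa3, an acute-phase protein gene, was at or under the floor in untreated CFs (0, 0.0621 and 0.158 CPM) and at 237, 247 and 238 CPM under TGF-β, at least 1520-fold higher. Cxcl1, a neutrophil chemokine gene, measured 6.39, 6.78 and 6.43 CPM untreated and 323, 359.6 and 327 CPM under TGF-β (log2 fold change 5.69, SE 0.13, edgeR BH-adjusted p = 4.3e-14). Cxcl5, which encodes a related chemokine, measured 178, 175 and 191 CPM untreated and 2902, 3057 and 2898 CPM under TGF-β (log2 fold change 4.02, SE 0.05, edgeR BH-adjusted p = 4.3e-26). All 3 of these genes were separated in every library. Il6 was already at 132, 132 and 141 CPM in untreated CFs, measured 157, 164 and 149.5 CPM under TGF-β, and was not called (0.22 ± 0.04). F3, tissue factor, the initiator of coagulation, went the other way, with 208, 213 and 224 CPM untreated and 55.5, 57.6 and 56.1 CPM under TGF-β (log2 fold change -1.93, SE 0.05, edgeR BH-adjusted p = 8.8e-21). Ptgs2, the inducible cyclooxygenase gene, fell by 1.47 and Il33, an alarmin gene, by 1.25. The NF-κB motif occurred on either strand in 9 of the 26 members with a window (34.6%), against 8.18% of all 27025 windows.

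Complement genes moved in both directions: 7 of 17 were called higher and 5 lower. Cfb, the alternative pathway factor B gene, measured 1.82, 2.22 and 2.04 CPM untreated and 178, 155 and 164 CPM under TGF-β (log2 fold change 6.35, SE 0.15, edgeR BH-adjusted p = 6.1e-14), and the classical pathway protease genes C1ra (3.96) and C1s1 (3.64) rose as well. C1qb and C1qa, which encode recognition chains made mainly by macrophages, fell by 3.55 and 1.44. C7, a membrane attack complex gene, dropped from 2.08, 1.53 and 1.85 CPM to the floor (0.124, 0.0967 and 0.0559 CPM), at least 10.6-fold lower. Beside them, the macrophage markers Itgam (2.59), Adgre1 (2.47) and Fcgr3 (2.01) rose and C1qc was at least 10.1-fold lower.

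Mitosis genes moved downward: 23 of 30 were called lower and 0 higher, with a median of -1.4, and 29 stood lower at an adjusted p of at most 0.05 alone (28.2% of all genes). Their summed level was 908.4 to 956.9 CPM untreated and 304.1 to 338.4 CPM under TGF-β. Mki67, the proliferation marker Ki-67, measured 69.0, 66.3 and 68.0 CPM untreated and 11.1, 12.6 and 13.5 CPM under TGF-β (log2 fold change -2.45, SE 0.10, edgeR BH-adjusted p = 2.4e-12). Cenpf, a kinetochore gene, measured 26.6, 26.0 and 26.7 CPM untreated and 4.08, 4.53 and 4.48 CPM under TGF-β (log2 fold change -2.60, SE 0.08, edgeR BH-adjusted p = 6.2e-19), and Anln, a cytokinesis gene, fell by 2.31. The groups of these genes did not overlap. The same list had 29 of 30 genes called lower under TGF-β in Scrambled CFs, with a median of -2.15. Before TGF-β, 29 of the 30 were already called lower with IAMP-siR-2 than with Scrambled siRNA, and under TGF-β 21 were, against 6.82% and 1.8% of all genes. DNA replication genes had 9 falls and 0 rises among 30 (median -0.74), led by Rrm2, the ribonucleotide reductase subunit gene (fell by 1.66), Pola1, a DNA polymerase α gene (1.64), and Ccne2, cyclin E2 (1.62). Among 18 CDK inhibitors and cyclin D related genes, Cdkn2b, the p15 inhibitor gene, rose by 2.91, and Ccnd1, cyclin D1, and Mycn fell by 2.12 and 4.02.

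The cell cycle homology region (CHR), a promoter element of genes expressed in G2 and mitosis, was searched as TTTGAA on either strand. It occurred in 18 of the 24 members with a window (75.0%), against 18.1% of all 27025 windows. The windows of the 2 members with the largest falls among those that hold a match are printed with the matches in capitals, to show the element in genes with large falls: Cenpf on the minus strand at chr1:189688037-189688336 and Mki67 on the minus strand at chr7:135716330-135716629, in GRCm38.p6 from RefSeq.
Cenpf: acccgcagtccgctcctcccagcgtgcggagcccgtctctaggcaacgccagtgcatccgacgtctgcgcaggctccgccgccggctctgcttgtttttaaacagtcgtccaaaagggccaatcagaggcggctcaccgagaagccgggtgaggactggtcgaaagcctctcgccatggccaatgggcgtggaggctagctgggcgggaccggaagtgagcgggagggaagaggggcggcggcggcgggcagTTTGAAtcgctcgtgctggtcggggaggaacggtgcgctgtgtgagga
Mki67: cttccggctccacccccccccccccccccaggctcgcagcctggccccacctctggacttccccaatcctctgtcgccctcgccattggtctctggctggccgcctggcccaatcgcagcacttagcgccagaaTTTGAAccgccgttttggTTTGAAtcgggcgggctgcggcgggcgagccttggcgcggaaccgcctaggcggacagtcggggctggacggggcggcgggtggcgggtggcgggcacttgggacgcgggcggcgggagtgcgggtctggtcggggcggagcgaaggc

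Metabolic genes moved by pathway. Among 31 genes of glycolysis and HIF-1 targets, 9 were called lower and 1 higher, with a median of -0.56. Pfkl, a phosphofructokinase gene, fell by 1.64, Tpi1, triosephosphate isomerase, by 1.62, and Ankrd37, a HIF-1 target, by 2.40, whereas Ndrg1, a stress-responsive HIF-1 target, rose by 1.65. Their summed level went from 11360 to 12060 CPM to 8173 to 8563 CPM. The hypoxia response element ACGTG occurred on either strand in 17 of the 29 members with a window (58.6%), against 19.7% of all 27025 windows.

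Of 24 genes of serine, glycine and proline synthesis and the ATF4 response, which supply collagen with its main amino acids, 12 were called higher and 3 lower (median 0.99). Pycr1, the last enzyme of proline synthesis, went from 4.03, 4.13 and 5.20 CPM to 37.6, 38.7 and 40.8 CPM (log2 fold change 3.13, SE 0.10, edgeR BH-adjusted p = 1.2e-18). Trib3, a pseudokinase gene downstream of ATF4, rose by 3.55 and Chac1, a glutathione-degrading enzyme gene, by 2.58. Among the falls, Psat1 (a serine synthesis enzyme) fell by 1.62 and Glul (glutamine synthetase) by 1.39.

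Genes of cholesterol and fatty acid synthesis had 8 rises and 0 falls among 26, among them Insig1, a sterol sensor gene (1.94), and Dhcr7, a late cholesterol synthesis gene (1.54). At an adjusted p of at most 0.05 alone, 23 of the 26 stood higher, against 29.4% of all genes. The sterol motif ATCACCCCAC was in 0 of 18 members' windows and in 0.0851% of all. None of 24 respiratory chain genes was called in either direction by the edgeR call rule, and their median was -0.18. At an adjusted p of at most 0.05 with no fold threshold, 6 of them stood higher and 13 lower, against 29.4% and 28.2% of all genes. NRF2 and oxidant enzyme genes gave 5 rises and 1 fall among 26, against 13% and 8.07% of all genes. Cybb, the phagocyte oxidase subunit gene (2.64), Sod3, the extracellular superoxide dismutase gene (2.18), and Gpx3 (1.66) were higher and Txnrd1 was lower by 1.12. Among 20 lipid handling and adipogenic genes, Apod rose from 0.547, 0.541 and 0.920 CPM to 48.0, 38.5 and 40.9 CPM and Apoe by 1.51, and Pparg, the adipogenic nuclear receptor gene, fell by 2.45, with Fabp5 (1.39) and Pdk4 (1.10).

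Secreted growth regulators changed in both directions. Of 35 growth factors and receptors, 7 were called higher and 9 lower. Fgf21, an endocrine stress hormone gene, was at 0 in the 3 untreated libraries and at 2.98, 3.06 and 3.02 CPM under TGF-β, at least 19.1-fold higher. Agtr1a, the angiotensin II receptor gene, rose from 0.174, 0.213 and 0.175 CPM to 4.17, 4.26 and 4.47 CPM (log2 fold change 4.51, SE 0.20, edgeR BH-adjusted p = 1.0e-15), and Fgf9 rose by 3.72. The EGF family ligand genes Areg and Ereg fell by 2.70 and 2.47. In the IGF axis (4 higher and 4 lower of 19), Igfbp7 (1.61), Irs2 (1.92) and Pappa2 (1.88) rose, and Stc1, Igfbp5 and Igfbp4 fell by 4.73, 2.01 and 1.41. WNT ligands and antagonists had 7 rises and 9 falls among 27, with Rspo3 (2.50), an enhancer of WNT signalling, and the receptor gene Fzd2 (2.2) higher and the antagonist gene Dkk2 lower by 3.67. Rspo1, at 0 in untreated CFs, measured 0.829, 0.261 and 0.373 CPM under TGF-β (at least 3.09-fold higher), and Notum, a WNT-inactivating enzyme gene, went from 0.313, 0.417 and 0.350 CPM to 0 (at least 2.1-fold lower). AP-1 and immediate-early genes were mostly lower where called, with 8 falls and 1 rise (Ier3, 1.26) among 25, led by Nr4a3, Nr4a1 (fell by 2.91) and the phosphatase gene Dusp4 (2.37). The AP-1 motif TGACTCA was found in 0 of 19 members' windows and 5.17% of all.

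Markers of the fibroblast itself did not move together: 10 of 29 identity genes were called higher and 7 lower, with a median of 0.08. Of the 29, 2 were at or under the detection floor in every untreated library, every TGF-β library or both. Tcf21, a transcription factor gene of resident cardiac fibroblasts, measured 161, 171 and 180.1 CPM untreated and 94.1, 86.3 and 89.7 CPM under TGF-β and was not called (-0.92 ± 0.05). Pdgfra, the receptor gene that marks them, measured 472, 468 and 479.6 CPM untreated and 159.8, 148 and 162 CPM under TGF-β (log2 fold change -1.60, SE 0.04, edgeR BH-adjusted p = 7.1e-20). Cd34, an adventitial progenitor marker, fell by 2.23 and Tbx20 by 1.48, while Pi16 (2.59), Dpep1 (3.16) and Islr (2.69), further fibroblast genes, rose. Tendon and cartilage genes gave 3 rises and 3 falls among 14, with Mkx (2.15), a tendon transcription factor gene, and Matn3 (2.75) higher and Sox9 (1.86), Alpl (1.54) and Sox5 (1.10) lower by the values given.

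Markers of other cell types a heart digest can hold were low but also moved. Mesothelial markers were at 104 to 111 CPM summed over 8 genes in untreated CFs and 26.3 to 32.9 CPM under TGF-β, with Krt8 called higher from near the floor (a call lost without untreated library 1 or 3) and 6 called lower, among them Krt19 (fell by 3.11), Gpm6a (2.45) and Upk1b (2.2). Upk3b, a defining mesothelial marker, measured 30.4, 33.8 and 33.5 CPM untreated and 11.3, 10.5 and 8.36 CPM under TGF-β. Endothelial markers were at 86.9 to 92.3 CPM and 129 to 137 CPM over 10 genes, with 5 called higher and Flt1 lower by 1.53. Mural cell markers were at 61.1 to 73.0 CPM and 69.3 to 72.1 CPM, with Rgs5 higher by 2.43. Schwann cell markers stood at 12.3 to 13.2 CPM and 13.8 to 15.4 CPM, and cardiomyocyte markers at 28.4 to 33.5 CPM and 3.77 to 4.35 CPM. The part of these cells in the matrix, complement and cell cycle results was not tested.

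**Figure D4:**
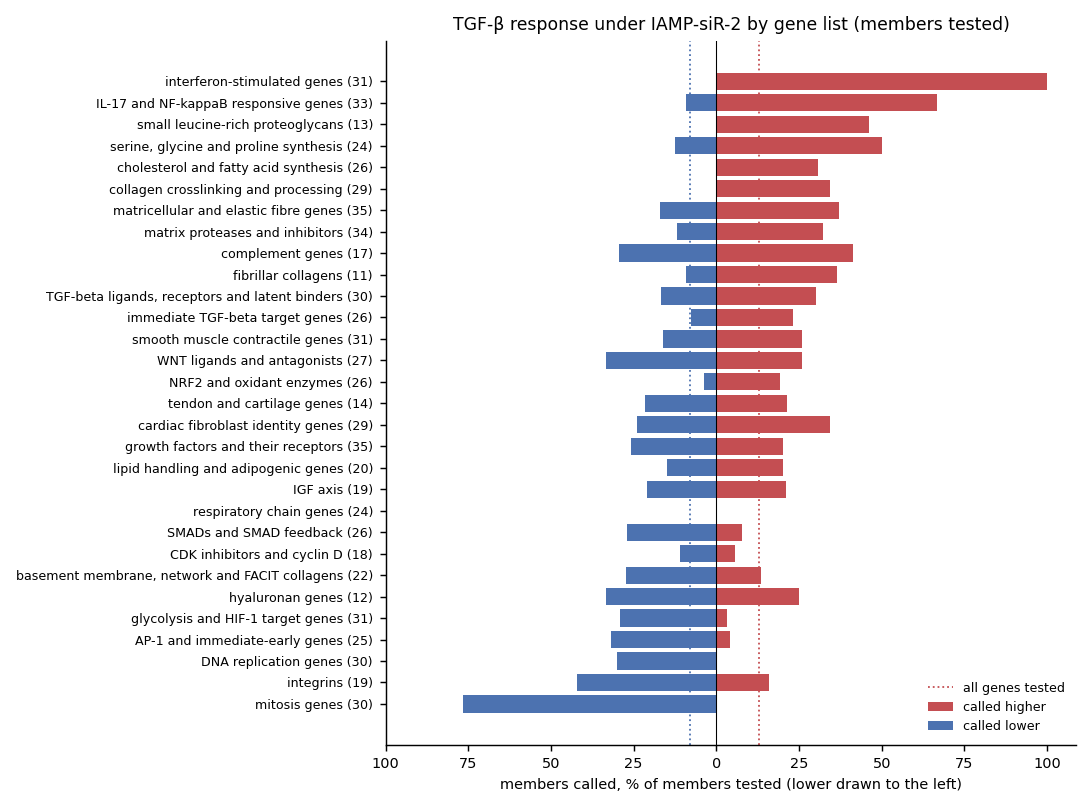
Share of the tested members of each gene list called higher (to the right) or lower (to the left) under TGF-β in IAMP-siR-2 CFs, in percent, with the lists in order of their median log2 fold change. The dotted lines mark 13% and 8.07%, the shares over all tested genes, and the interferon list reaches 31 of 31 called higher and the mitosis list 23 of 30 called lower. List members were chosen with earlier results of these data known.

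Whether the response differed with the siRNA was tested as the response under IAMP-siR-2 minus the response under Scrambled. Of 21508 genes, 619 (2.88%) had a higher and 476 (2.21%) a lower response under IAMP-siR-2 by at least 1 on the log2 scale at an edgeR BH-adjusted p of at most 0.05. A higher response is a larger rise, a smaller fall or a rise in place of a fall, and a lower response is the reverse. Since the difference of responses is also the difference between siRNAs under TGF-β minus that in untreated CFs, the levels in all 4 groups were examined. Of the 619 genes with the higher response, 456 were called lower with IAMP-siR-2 than with Scrambled siRNA in untreated CFs and not called between the siRNAs under TGF-β. Another 24 were lower in both states, 36 were called only under TGF-β, where they were higher, 1 was lower untreated and higher under TGF-β, and 102 were called in neither. Of the 476 genes with the lower response, 289 were called higher with IAMP-siR-2 in untreated CFs only, 21 higher in both states, 50 called only under TGF-β, where they were lower, and 111 called in neither. Of the remaining 5, 4 were higher untreated and lower under TGF-β, and 1 was lower in both. Over all tested genes, 6.82% were called lower and 3.5% higher with IAMP-siR-2 in untreated CFs. Under TGF-β the shares were 1.8% and 0.781%, so untreated calls were commoner among all genes too. Most of the called differences belonged to genes whose untreated levels differed between the siRNAs. A called difference is made of the same levels, so these counts are no separate test. Among the 16 genes named for the largest differences, 15 were called between the siRNAs in untreated CFs and 0 under TGF-β by the edgeR call rule, where their differences ran from -0.85 to 0.98. They were ranked on the difference, which is made of these same levels, so the counts describe the picked genes only.

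Interferon-stimulated genes were prominent among the largest positive differences. Cxcl10 measured 0.461, 1.22 and 1.28 CPM untreated with IAMP-siR-2 and 13.7, 3.15 and 7.97 CPM with Scrambled siRNA. Under TGF-β it measured 250.4, 161 and 119 CPM and 66.3, 117 and 95.8 CPM. The untreated groups were apart, the TGF-β groups were higher with IAMP-siR-2 in each library, and the response was larger under IAMP-siR-2 (difference 3.99, SE 0.86, edgeR BH-adjusted p = 0.003). Gbp7 measured 2.83, 2.00 and 3.51 CPM untreated with IAMP-siR-2 against 30.7, 17.7 and 23.4 CPM with Scrambled, and 54.6, 54.2 and 48.0 CPM against 68.0, 97.4 and 80.2 CPM under TGF-β (difference 2.46, SE 0.37, edgeR BH-adjusted p = 1.7e-04). Here the groups were apart in both states, with the lower values under IAMP-siR-2. Over the whole interferon list, the difference was positive in 31 of 31 members, with a median of 0.96 against 0.02 over all genes. It had an adjusted p of at most 0.05 in 16 (14.6% of all genes) and was called in 12 (2.88% of all genes). The members are not separate observations, since their TGF-β libraries with IAMP-siR-2 were ordered alike. Against IAMP-siR-1, 1 of the 31 had a called higher response (1.74% of all genes). The untreated level was called lower with IAMP-siR-2 than with Scrambled in 8 members (6.82% of all genes) and the TGF-β level higher in 1 (0.781%). The summed level in Scrambled CFs was 847.5 to 1353 CPM untreated and 6582 to 7608 CPM under TGF-β. Mx1 was at the edge of the call (difference 2.84, SE 0.98, edgeR BH-adjusted p = 0.046). It lost significance without a filter on low counts, with the replicate number as a block, with counts divided by 6, and in each fit without a library except those without untreated Scrambled library 2, untreated IAMP-siR-2 library 3 or TGF-β IAMP-siR-2 library 3, with edgeR BH-adjusted p from 0.0205 to 0.115 over all its edgeR alternatives and 0.0164 by DESeq2.

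Further large positive differences were those of Tgtp1 (2.95), Tgtp2 (3.18) and Apol9a (2.44), an apolipoprotein L family gene. Lmo2 and Phc3 stood apart from these, because the Scrambled response was a fall. Lmo2, a hematopoietic and endothelial transcription cofactor gene, measured 3.33, 3.21 and 3.46 CPM untreated and 7.55, 5.37 and 6.00 CPM under TGF-β with IAMP-siR-2. With Scrambled siRNA it measured 16.8, 17.0 and 18.1 CPM untreated and 4.06, 4.28 and 5.73 CPM under TGF-β (difference 2.80, SE 0.17, edgeR BH-adjusted p = 8.1e-12). Phc3, a Polycomb complex gene, measured 11.9, 12.8 and 12.3 CPM untreated and 11.3, 8.75 and 11.1 CPM under TGF-β with IAMP-siR-2 and 63.8, 70.0 and 59.0 CPM untreated and 7.42, 8.44 and 9.25 CPM under TGF-β with Scrambled siRNA (difference 2.69, SE 0.13, edgeR BH-adjusted p = 1.7e-12). Untreated Phc3 levels under IAMP-siR-1 (65.6, 65.4 and 71.2 CPM) overlapped those of Scrambled CFs, and its TGF-β levels there were 52.5, 58.1 and 52.3 CPM.

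Negative differences included genes whose changes had opposite signs under the siRNAs. F3 measured 31.8, 32.1 and 30.0 CPM untreated and 61.0, 64.5 and 57.3 CPM under TGF-β in Scrambled CFs, a change of 0.96 ± 0.05, while it fell from 208, 213 and 224 CPM to 55.5, 57.6 and 56.1 CPM under IAMP-siR-2 (difference -2.89, SE 0.06, edgeR BH-adjusted p = 1.1e-19). The TGF-β levels of F3 nearly coincided and the untreated levels did not. Alpl, tissue-nonspecific alkaline phosphatase, fell from 41.0, 36.9 and 38.3 CPM to 13.1, 12.8 and 14.0 CPM under IAMP-siR-2 and rose from 2.88, 2.76 and 3.42 CPM to 8.63, 8.70 and 8.80 CPM in Scrambled CFs (difference -3.07, SE 0.11, edgeR BH-adjusted p = 1.4e-15). Hs3st1, a heparan sulphate sulphotransferase gene, went from 10.0, 9.73 and 9.29 CPM to 4.62, 4.68 and 4.78 CPM and from 1.57, 1.52 and 1.15 CPM to 3.94, 3.92 and 3.71 CPM (difference -2.49, SE 0.17, edgeR BH-adjusted p = 2.7e-11). Each of these genes started higher with IAMP-siR-2 and ended nearer the Scrambled level. Alpl and Hs3st1 were still higher in every IAMP-siR-2 library under TGF-β. Mgam (-3.45), Igfbp5 (-2.82), Synpr (-2.83) and Olfr1033 (-2.47) were the other large negative differences, with called falls of 2.30, 2.01, 2.42 and 2.66 under IAMP-siR-2.

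The chemokine gene Ccl8 rose under both siRNAs but from different untreated levels. It measured 5.53, 4.91 and 5.93 CPM untreated and 55.9, 52.7 and 48.7 CPM under TGF-β with IAMP-siR-2. With Scrambled siRNA it measured 0.341, 0.445 and 0.404 CPM untreated and 33.5, 33.7 and 32.3 CPM under TGF-β (difference -3.12, SE 0.20, edgeR BH-adjusted p = 1.1e-09). Of 33 IL-17 and NF-κB responsive genes, 10 had a lower response under IAMP-siR-2 and 0 a higher one by the edgeR call rule. Over all genes the shares were 2.21% and 2.88%. Among the 10 were Cxcl5 (-1.58), F3 and Il6 (-1.86), the latter measuring 20.3, 19.5 and 18.8 CPM untreated and 81.8, 86.5 and 79.1 CPM under TGF-β in Scrambled CFs. In this list 11 genes were called higher with IAMP-siR-2 than with Scrambled siRNA before TGF-β and 7 under it, against 3.5% and 0.781% of all genes.

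**Figure D5:**
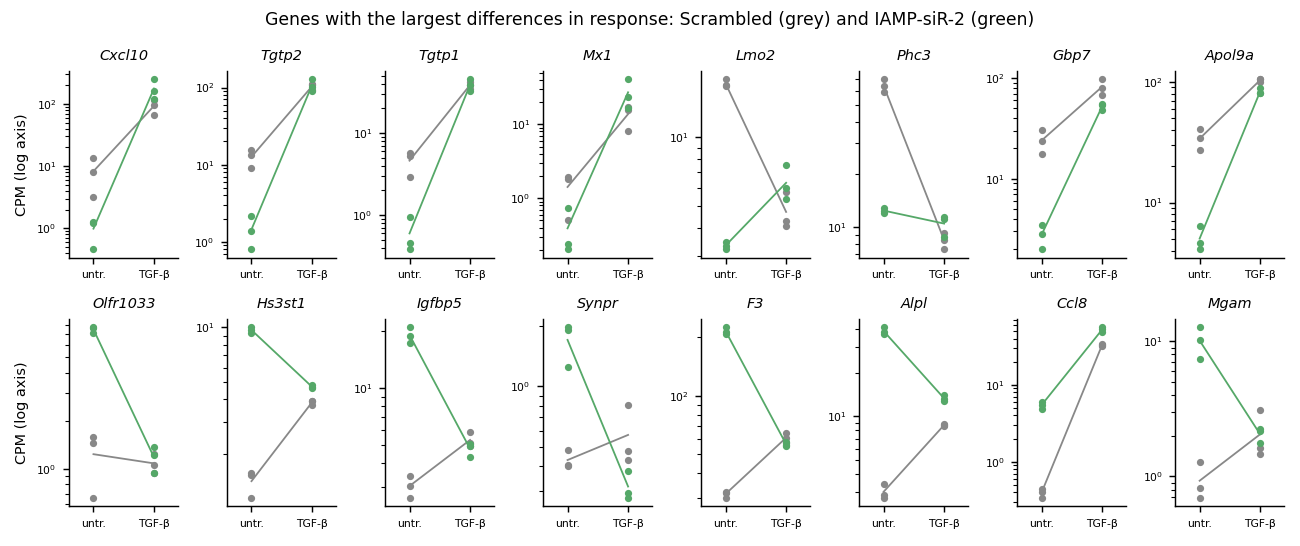
CPM on a log axis in each library of the 16 genes named for the largest differences between the IAMP-siR-2 (green) and Scrambled (grey) responses, untreated and under TGF-β, with lines joining the group means. By the call rule the siRNAs differ in the untreated libraries in 15 of the 16 genes and under TGF-β in 0, where the differences run from -0.85 to 0.98 (log2). The genes were ranked on the difference in response, which is made of these same levels.

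The response was also compared with that under IAMP-siR-1, using the same IAMP-siR-2 libraries as the comparison with Scrambled. Here 374 genes (1.74%) had a higher and 408 (1.9%) a lower response under IAMP-siR-2, and 171 and 156 of these were called in the same direction against Scrambled, which shares the IAMP-siR-2 libraries. The siRNAs target the same transcript, and 4930523C07Rik itself measured 2.54, 3.53 and 3.00 CPM untreated and 4.60, 4.02 and 4.44 CPM under TGF-β with IAMP-siR-1, a response that did not differ past the threshold from that under IAMP-siR-2 (difference 0.29, SE 0.16, edgeR BH-adjusted p = 0.22). Piezo2, a mechanosensitive channel gene, measured 3.93, 3.34 and 4.22 CPM untreated and 20.8, 21.6 and 20 CPM under TGF-β with IAMP-siR-2 and 24.6, 22.9 and 24.2 CPM untreated and 28.6, 24.4 and 25 CPM under TGF-β with IAMP-siR-1 (difference 2.32, SE 0.11, edgeR BH-adjusted p = 5.0e-14). Adamts8, a matrix protease gene, measured 1.31, 0.878 and 0.771 CPM untreated and 11, 11.4 and 11.5 CPM under TGF-β with IAMP-siR-2 and 4.68, 4.31 and 4.50 CPM untreated and 10.7, 12.3 and 11.2 CPM under TGF-β with IAMP-siR-1 (difference 2.17, SE 0.18, edgeR BH-adjusted p = 1.1e-09). In both genes the untreated level was lower with IAMP-siR-2, and the Adamts8 levels under TGF-β overlapped.

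Meox1, a transcription factor gene of activated fibroblasts, rose from 7.38, 6.76 and 7.79 CPM to 38.4, 41.4 and 42.0 CPM with IAMP-siR-2 and measured 18.7, 22.1 and 20.4 CPM untreated and 27.9, 29.8 and 28.7 CPM under TGF-β with IAMP-siR-1 (difference 1.98, SE 0.09, edgeR BH-adjusted p = 5.1e-14). Tmem47 (2.03), Prkar2b, a regulatory subunit gene of protein kinase A (1.88), Slc17a9 (1.85), Hapln4 (1.83) and the phosphatase gene Ptp4a1 (1.82) were the others with the largest positive differences.

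On the negative side, Cd55, a complement decay-accelerating factor gene, measured 212, 203 and 190 CPM untreated and 109.5, 120.3 and 119.7 CPM under TGF-β with IAMP-siR-2 and 43.5, 42.1 and 40.4 CPM untreated and 126, 125 and 120.2 CPM under TGF-β with IAMP-siR-1 (difference -2.35, SE 0.07, edgeR BH-adjusted p = 5.1e-17). Ackr3, an atypical chemokine receptor gene, measured 4.70, 5.37 and 4.89 CPM untreated and 26.2, 26.5 and 25.8 CPM under TGF-β with IAMP-siR-2 and 1.25, 1.08 and 1.28 CPM untreated and 37.1, 39.7 and 40.2 CPM under TGF-β with IAMP-siR-1 (difference -2.62, SE 0.10, edgeR BH-adjusted p = 4.6e-15). Ackr3 rose under both siRNAs, from a higher untreated level with IAMP-siR-2 to a lower TGF-β level. Psd3 (-2.81), Reps2 (-2.74), Mgam (-3.17), Serpinb2 (-2.63), Alpl (-2.50) and Nr4a3 (-2.30) were the others. Prkar2b and Psd3 moved by -0.77 ± 0.05 and -0.81 ± 0.07 under IAMP-siR-2 and were not called there, while their changes of -2.65 and 1.99 under IAMP-siR-1 were.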

How the data were processed

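RNA-Seq of CFs was deposited as a table of estimated counts per gene for each stimulus. Per the labels and the study's methods, the authors trimmed reads with Cutadapt, aligned them to GRCm38 with HISAT2 and quantified genes with StringTie, and the deposited values are estimated counts that are whole numbers, rise in steps of up to 6 per read pair, and are not normalized. By this inference each read pair is counted several times, so the smallest values look more precise than they are. Values of 18 or fewer per library were taken as not detected. Group membership came from the sample labels. The tables name untreated columns by siRNA number, which was resolved through the descriptions of the TGF-β samples.

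Counts of 18 libraries (6 groups of 3) were fitted with edgeR 4.0.16 in R 4.3.3 (TMM normalization, filterByExpr, robust quasi-likelihood F test, Benjamini-Hochberg adjustment over 21508 genes). The fit shares a spread estimate over all groups and has no covariate. A call needed an adjusted p of 0.05 or less together with a 2-fold change or more. Differences in response were interaction contrasts in that fit. Each SE was taken from the fitted coefficient and its F value (coefficient over the root of F). CPM used TMM-scaled library sizes. Named genes were the 12 largest rises and falls, the 8 largest differences each way, a fixed set of pathway genes, and up to 3 rises and 3 falls from each of 37 gene lists, with a mean of at least 1 CPM where the largest changes were sought. The largest changes also had to be above the floor in every library compared, with no overlap between the IAMP-siR-2 groups. Timp4, Myocd and other members near the floor are given as levels or bounds. The members and lists were chosen with earlier results of these data known. The steps were run on simulated counts with 200 changed genes and the same spread for every gene. The simulation had no shift between tables and no repeated counting of read pairs, so it checks the steps and not these data. Promoter windows and motif matches used RefSeq sequences of GRCm38.p6 and 27025 genes. Alternatives were DESeq2 1.42.0, RLE scaling, other count filters, a replicate block, counts divided by 6, 27 libraries in the fit, the 6 libraries alone, a lower fold threshold and leaving out each library. The IL-17 libraries entered only the fit of 27, and heart samples were not used here. A few genes that the naming rule selects are not reported here.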

Additional observations from a re-analysis of the deposited data

Results flagged for a closer look

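Each result here was picked out because the TGF-β response under IAMP-siR-2 differed from the response under another siRNA in the interaction test. The counts were 619 higher and 476 lower against Scrambled, and 374 higher and 408 lower against IAMP-siR-1. All values below are differences in log2 response, IAMP-siR-2 minus the other siRNA, for genes named in the text. The comparisons share the IAMP-siR-2 libraries, so a gene that appears in both is not supported independently.

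Against Scrambled, defence genes rose more under IAMP-siR-2: Cxcl10 (3.99), Tgtp2 (3.18), Tgtp1 (2.95), Mx1 (2.84), Gbp7 (2.46), Apol9a (2.44), Gbp4 (2.28), Gbp5 (1.80) and Ifit1 (1.27). Matrix genes with a positive difference were Adamts14 (2.34), Islr (1.38), Col5a3 (1.28), Adamts8 (1.19), Cemip (1.19) and Fn1 (1.06). Fn1 measured 8118, 8226 and 7519 CPM untreated and 6695, 7138 and 7448 CPM under TGF-β in Scrambled CFs, so its fibronectin transcript had a change of -0.17 ± 0.04 there and 0.90 ± 0.04 with IAMP-siR-2. Slc39a4 (1.5) rose more as well, and Tmem47 (1.95) was called higher under IAMP-siR-2 alone. Genes called lower under both siRNAs that fell less under IAMP-siR-2 were Col6a3 (1.78), Plau (1.53), Hmga2 (1.4), Flt1 (1.27), Dusp4 (1.04) and Mki67 (1.01). Called lower in Scrambled CFs and not called under IAMP-siR-2 were Lmo2 (2.80), Phc3 (2.69), Prkar2b (2.15), Ptp4a1 (1.60) and Tgfbr1 (1.06). The target 4930523C07Rik (1.03) was called in neither response. Fgf21, at 0 in untreated IAMP-siR-2 CFs, had a fitted difference of 5.62 that depends on the prior count and is no bound. Gbp4 was at or under the floor in most untreated IAMP-siR-2 libraries, so its difference is uncertain in size.

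In the negative direction against Scrambled, Ccl8 (-3.12), Cxcl5 (-1.58), Insig1 (-1.62) and Col22a1 (-1.16) rose less under IAMP-siR-2. Il6 (-1.86) and Cd55 (-2.22) were called higher in Scrambled CFs and not called under IAMP-siR-2. Ccl11, the eotaxin gene, which was singled out after its values were seen, measured 0.391, 0.514 and 0.885 CPM untreated and 1.10, 1.01 and 1.31 CPM under TGF-β with IAMP-siR-2 and 0, 0 and 0 CPM untreated and 0.421, 0.469 and 0.255 CPM under TGF-β with Scrambled siRNA, a difference of -7.49. Its untreated Scrambled libraries were at 0 while its untreated IAMP-siR-2 libraries were not, so the fitted difference depends on the prior count and is no bound, and against IAMP-siR-1 its difference was -1.90. Called lower under IAMP-siR-2 and higher in Scrambled CFs were Mgam (-3.45), Alpl (-3.07) and Hs3st1 (-2.49). Called lower under IAMP-siR-2 and not called in Scrambled CFs were F3 (-2.89), Synpr (-2.83), Igfbp5 (-2.82), Olfr1033 (-2.47), Adamts15 (-1.88), Sox9 (-1.62), Reps2 (-1.60), Glul (-1.33), Pfkl (-1.33) and Bmpr1b (-1.09). Genes that were lower under both siRNAs and fell further under IAMP-siR-2 were Col28a1 (-2.43), Stc1 (-2.15), Eid3 (-2.14), Serpinb2 (-1.95), Mycn (-1.58), Rgs2 (-1.57), Fgf10 (-1.48), Tnfsf15 (-1.16) and Pkhd1l1 (-1.15). C7 (-3.19) and C1qc (-1.74) were at the floor under TGF-β, so their fitted values are no bound.

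Against IAMP-siR-1, genes called higher under both siRNAs that rose more under IAMP-siR-2 were Adamts8 (2.17), Hapln4 (1.83), Pycr1 (1.70), Gdf15 (1.59), Chac1 (1.56), Tgtp1 (1.55), Mfap4 (1.5), Ltbp2 (1.20), Gbp7 (1.18), Col8a2 (1.14), Slc39a4 (1.12), Dpep1 (1.11) and Apol9a (1.05). Called higher under IAMP-siR-2 and not called under IAMP-siR-1 were Piezo2 (2.32), Tmem47 (2.03), Meox1 (1.98), Slc17a9 (1.85), Cemip (1.62), Irs2 (1.08), Gpx3 (1.06), Tagln (1.03) and Adamts14 (1.00). Hmga2 (1.14) and Inhba (1.07) fell under both and less under IAMP-siR-2, and Prkar2b (1.88) and Ptp4a1 (1.82) were called lower under IAMP-siR-1 alone. Fn1 (1.56), Postn (1.14) and Lmo2 (1.10) were called in neither response. Fgf21 (5.00) and Rspo1 (4.81), at 0 in untreated IAMP-siR-2 CFs, have fitted values that are no bound. Col8a2 was at or under the floor in most untreated IAMP-siR-2 libraries, so its difference is uncertain in size.

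In the negative direction against IAMP-siR-1, Ackr3 (-2.62) rose less under IAMP-siR-2. Psd3 (-2.81), Cd55 (-2.35) and Il6 (-1.33) were called higher under IAMP-siR-1 and not called under IAMP-siR-2. Reps2 (-2.74) and Hs3st1 (-2.2) were called higher under IAMP-siR-1 and lower under IAMP-siR-2. Called lower under IAMP-siR-2 and not called under IAMP-siR-1 were Mgam (-3.17), Alpl (-2.50), Olfr1033 (-2.08), Adamts15 (-1.92), Ankrd37 (-1.70), Glul (-1.69), Il33 (-1.4), Sox5 (-1.27), Pfkl (-1.25), Igfbp5 (-1.14) and Fabp5 (-1.03). Genes that were lower under both and fell further under IAMP-siR-2 were Serpinb2 (-2.63), Nr4a3 (-2.30), Itgb6 (-2.11), Rgs2 (-1.58), Nr4a1 (-1.46), Tnfsf15 (-1.31), Synpr (-1.27), Id2 (-1.18), Eid3 (-1.08) and Has1 (-1.07).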

How the results depend on the processing

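Under a threshold of 1.5-fold in place of 2-fold, the counts moved to 3335 genes lower in the response, 1418 higher and 1078 lower against Scrambled, and 1032 higher and 928 lower against IAMP-siR-1, since the looser rule takes in more genes. Counts of calls in the response stayed within 1.5 times the reported ones under the other settings, from 1902 (genes with at least 10 estimated counts in every library) to 2964 (DESeq2) higher and from 1378 to 1840 lower. Leaving out each library in turn gave 2606 to 2709 genes higher and 1640 to 1681 lower in the response, 563 to 652 and 418 to 448 against Scrambled, and 356 to 405 and 370 to 419 against IAMP-siR-1. Same-numbered untreated and TGF-β libraries of IAMP-siR-2 did not deviate together (correlations 0.025, -0.017 and -0.091 over 13368 genes), so replicate numbers were not taken as pairs. With the replicate number as a block, 2703 genes were higher and 1726 lower in the response, 577 and 451 against Scrambled, and 361 and 380 against IAMP-siR-1, and the block took the calls of Colgalt2, Timp4 and, against Scrambled, Mx1. Among named genes 41 alternatives of a response lost a call and 2 gained it (Lmo2 and Mmp3), 12 alternatives of a difference lost it (all Mx1 against Scrambled), and 0 turned direction. The median of the immediate TGF-β targets was 0.398 to 0.41 in the 3 fits that tested 25 of its 26 members. Scaling moved the median of all genes between 0.056 and 0.061. With the 6 libraries alone, the edgeR BH-adjusted p of named responses moved in both directions. That of Mfap4 went from 7.1e-13 to 1.4e-05 and that of Nr4a3 from 1.7e-09 to 3.2e-12. With each read pair inferred to be counted several times, genes under about 3 read pairs carry too little depth for a fold change.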
